A study of Mus musculus with 48 samples.

Results

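The colon of control mice was compared between the start of the subjective night, circadian time 13 (CT13), and the start of the subjective day, circadian time 1 (CT1). The comparison holds 8 of the 48 colon samples of the series, 4 mice at CT13 and 4 at CT1, taken as the columns of the count table whose names give control colon at these times. Every mouse was a male littermate on the C57BL/6J background that carried Bmal1 alleles flanked by loxP sites. Control mice (Bmal1flox/flox) lacked Cre, while Bmal1IEC-/- mice carried Cre under the Villin promoter, which is active in the intestinal epithelium and leaves Bmal1 intact in muscle, stroma, nerves and blood cells. The mice were adults, held singly with a running wheel and food at will, and were killed on the second day of constant darkness, so that no light cue marked the time. RNA of whole colon tissue was sequenced for 4 mice of each genotype at 6 times 4 h apart, and all genes kept by the expression filter were tested.

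The molecular clock of mammalian cells is a feedback loop. Bmal1 protein (gene Arntl) pairs with Clock or Npas2, binds E-boxes and switches on the Per and Cry genes, whose proteins then block that pair. Bmal1 and Clock also drive the Rev-erb genes Nr1d1 and Nr1d2, whose proteins compete with the ROR activators at shared elements of Arntl, and the PAR bZIP factors Dbp, Tef and Hlf, which bind D-boxes that Nfil3 can occupy instead. In the gut this loop runs in epithelial cells as well as in the wall, and feeding, glucocorticoids and body temperature reach the same cells as daily signals of their own.

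Promoters of clock genes are shown here because clock genes were among those of smallest adjusted p between CT13 and CT1, and because the elements above are short enough to be read in them. RefSeq windows (GRCm38.p6) of 250 bases before and 50 bases after the start were searched on both strands for the E-box CACGTG, the D-box TTANGTAA, the ROR element TAGGTCA or TGGGTCA, and the cell cycle element CHR, TTTGAA. None of these sets of letters contains another. The E-box stood in 4 of the 8 windows found for clock repressors that differed between the times, beside 9.49% of all 13679 windows of tested genes. The 4 windows belonged to Per1, Cry1, Ciart and Bhlhe41. Of 14 windows of called outputs of the clock, 5 held the E-box, among them that of Tef. The following sequences are the 250 bases before the start, 5′ to 3′ on the strand of the gene, with the E-box in capitals and the rest in lower case.
Per1 (chr11:69098699-69098948, plus strand): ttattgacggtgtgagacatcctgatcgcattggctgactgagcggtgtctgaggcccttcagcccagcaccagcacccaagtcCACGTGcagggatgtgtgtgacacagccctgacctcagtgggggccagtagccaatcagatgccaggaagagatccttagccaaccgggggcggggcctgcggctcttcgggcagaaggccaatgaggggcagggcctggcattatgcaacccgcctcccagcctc
Cry1 (chr10:85185055-85185304, minus strand): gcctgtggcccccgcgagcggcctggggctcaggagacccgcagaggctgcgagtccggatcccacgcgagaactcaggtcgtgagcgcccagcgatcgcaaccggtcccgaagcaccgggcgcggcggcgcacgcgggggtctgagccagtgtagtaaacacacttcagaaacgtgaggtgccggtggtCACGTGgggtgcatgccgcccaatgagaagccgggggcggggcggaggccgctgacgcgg
Ciart (chr3:95882229-95882478, minus strand): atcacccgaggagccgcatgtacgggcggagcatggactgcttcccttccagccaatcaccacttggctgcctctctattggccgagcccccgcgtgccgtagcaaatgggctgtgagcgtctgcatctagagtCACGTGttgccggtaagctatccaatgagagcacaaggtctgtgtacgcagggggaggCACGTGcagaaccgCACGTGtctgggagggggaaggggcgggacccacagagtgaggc
Bhlhe41 (chr6:145865421-145865670, minus strand): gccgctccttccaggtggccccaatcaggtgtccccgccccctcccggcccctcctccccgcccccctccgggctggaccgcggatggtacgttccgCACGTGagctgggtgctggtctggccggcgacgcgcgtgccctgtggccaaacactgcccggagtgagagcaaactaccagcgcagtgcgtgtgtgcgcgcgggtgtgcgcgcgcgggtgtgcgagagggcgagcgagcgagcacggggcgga
Tef (chr15:81802423-81802672, plus strand): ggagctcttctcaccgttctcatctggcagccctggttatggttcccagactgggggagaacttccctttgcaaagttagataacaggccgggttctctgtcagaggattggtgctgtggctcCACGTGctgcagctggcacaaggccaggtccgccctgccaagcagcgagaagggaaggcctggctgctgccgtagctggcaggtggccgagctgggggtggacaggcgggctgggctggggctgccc

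The Ciart window held 3 E-boxes, whose first bases lay 116, 58 and 44 bases before the start. In the other windows the single E-box lay 166 bases before the start for Per1, 60 for Cry1, 153 for Bhlhe41 and 127 for Tef. Of all genes called higher at CT13, 10.1% of windows held the E-box, and of those called lower, 8.42%, near the share of all windows. The window of Per3 held no E-box but a pair of D-boxes, in capitals here, 205 and 158 bases before the start, and D-boxes stood in 1.45% of all windows.
Per3 (chr4:151044666-151044915, minus strand): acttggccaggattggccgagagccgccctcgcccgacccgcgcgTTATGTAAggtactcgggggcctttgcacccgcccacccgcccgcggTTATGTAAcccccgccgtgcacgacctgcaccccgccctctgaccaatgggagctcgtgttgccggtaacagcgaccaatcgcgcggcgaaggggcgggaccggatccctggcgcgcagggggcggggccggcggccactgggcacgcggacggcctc
For Arntl, a ROR element began 31 bases after the start, in the first exon, and is given in capitals within the 30 bases around it. ROR elements stood in 5.08% of all windows and in 6.24% of those of genes called lower at CT13.
Arntl (chr7:113207530-113207559, plus strand): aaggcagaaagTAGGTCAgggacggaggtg
A match describes the letters in these windows and does not show that a factor was bound there.

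Total counts of the 8 mice lay between 3227695 and 4248356. On the first principal component of the 500 most variable genes, with 71.2% of the variance, the CT13 mice lay between -12.88 and -7.521 and the CT1 mice between 6.311 and 12.35. The mice nearest to the center were SV421 at CT13 and SV469 at CT1. Markers of colon epithelium such as Krt20 and Vil1 were present in every mouse, with a summed normalized count of 67610 to 85010 at CT1 and 81340 to 93260 at CT13, and 4 of the 15 markers were called higher at CT13 (2 when corrected for GC content as described below). The sum of fibroblast markers was 5819 to 6320 at CT1 and 4197 to 5625 at CT13, and that of smooth muscle markers reached 22200 at CT1 and 18430 at CT13. Markers at 0 in all 8 mice were 6 of 9 for the pancreas and 4 of 10 for small intestine. The small intestine list still summed to 1129 to 1443 at CT1 and 1587 to 2147 at CT13, without overlap. Neither of its 2 tested markers was called. The pancreas list summed to 161 to 177.5 at CT1 and 153.3 to 215.5 at CT13. The 9 markers of keratinized squamous epithelium, which lines the anal canal, summed to 27.2 to 65.5 at CT1 and 9.6 to 21 at CT13. The part of these differences in the results below was not tested. In bulk tissue, fewer cells of a type and less RNA per cell cannot be told apart.

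Of 14221 genes tested in the 24 control mice, 2823 (19.9%) differed between CT13 and CT1 at an adjusted p under 0.05 and a fold change over 1.5, and such genes are named called here. Of these genes, 1351 (9.5% of those tested) were higher and 1472 (10.4%) lower at CT13. The adjusted p came from the quasi-likelihood test of edgeR, adjusted by Benjamini-Hochberg across every gene tested, and each sample was 1 mouse. Without the demand on the fold change, 5746 genes (40.4%) passed. In 2627 genes (18.5%) every CT13 mouse lay above every CT1 mouse, and in 2548 (17.9%) every CT13 mouse lay below. Where a list of genes with a shared role is described below, its counts are to be read against these shares.

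The direction of the difference followed the base composition of the genes. When the genes were divided into 5 equal groups by the GC content of their transcripts, the share called higher at CT13 was 2.22% in the group of lowest GC content and 26.9% in that of highest, and the share called lower was 16.5% and 3.06%. The median log2 fold change went from -0.21 to 0.36 over the same groups. Taken per mouse, as the level of the highest group minus that of the lowest on a log2 scale, the 4 CT1 mice lay between -0.439 and -0.287 and the 4 CT13 mice between 0.101 and 0.289, so the times did not overlap. The trend and the time of day cannot be told apart in this design. In some other groups the trend spread widely among mice of the same time. It ran from -0.341 to 0.496 in Bmal1IEC-/- mice at CT9 and from -0.256 to 0.292 in control mice at CT17. In control mice at CT21 it was narrower, from 0.024 to 0.242. After the trend was removed from each mouse, 935 genes were called higher and 1342 lower. Of the genes called higher before, 53.9% stayed called in that direction, and of those called lower, 75.6%. Counts with the trend removed are given below as GC-corrected.

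**Figure D1:**
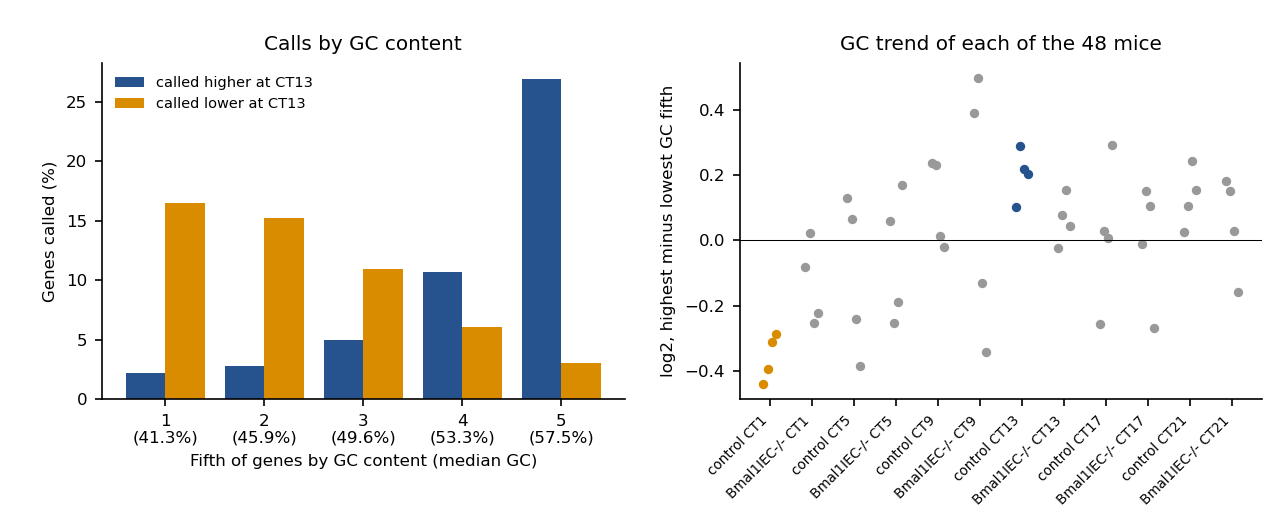
Left, percent of tested genes called higher or lower in control colon at CT13 against CT1, in 5 equal groups of genes ordered by GC content (median GC of each group in brackets). Right, the level of the highest GC group minus that of the lowest, log2, 1 point for each of the 48 mice by genotype and time. Calls of higher expression climb from 2.22% to 26.9%, and the 4 control CT1 mice sit below the 4 control CT13 mice.

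The 5 tested activators of the clock went in both directions, with 2 called lower at CT13 and 1 higher (also when GC-corrected). Arntl and Npas2 were lower, while Clock and Rora were not called. The activator called higher, at a log2 fold change of 1.29, is not reported here. Normalized read counts are counts divided by the size factor of the mouse, and are listed for CT1 mice in the order SV454, SV455, SV468 and SV469, and for CT13 mice in the order SV421, SV424, SV396 and SV397. Arntl (chr7:113207465-113314126, GRCm38) had 244, 256, 283 and 247 normalized counts at CT1 and 25.9, 17.2, 40.2 and 36.3 at CT13. All CT13 mice lay far below all CT1 mice, and the log2 fold change was -3.09 ± 0.19 (SE, edgeR adjusted p = 4.99e-12), which is 8.49-fold lower. Npas2, which can stand in for Clock as partner of Bmal1, had 211, 216, 222 and 221 at CT1 and 70.3, 65.7, 79.4 and 59.7 at CT13 (log2 fold change -1.65 ± 0.17, edgeR adjusted p = 5.57e-08). Clock itself had 365 to 477 at CT1 and 350 to 430 at CT13 and the times overlapped (log2 fold change -0.11 ± 0.14). Rora had 74.1 to 92.8 at CT1 and 54.8 to 63.0 at CT13, without overlap but at a fold change of 1.34.

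The repressors of the clock were higher at CT13, with 9 of 10 called higher, none lower and a median log2 fold change of 2.02, beside -0.01 over all genes. Per2 (chr1:91415982-91459324) had 40.6, 47.6, 23.5 and 41.4 normalized counts at CT1 and 594, 970, 812 and 729 at CT13. This 20.2-fold difference (log2 fold change 4.34 ± 0.23, edgeR adjusted p = 1.52e-13) was the largest of the list. Per1, which in many tissues also answers to acute signals, had 20.9, 38.1, 13.3 and 40.3 at CT1 and 461, 472, 345 and 474 at CT13 (log2 fold change 3.95 ± 0.35, edgeR adjusted p = 7.40e-09). Per3, the gene whose promoter held D-boxes, had 65.0, 52.4, 47.0 and 46.8 at CT1 and 445, 336, 386 and 327 at CT13 (log2 fold change 2.83 ± 0.18, edgeR adjusted p = 9.27e-12). All Per genes were thus separated completely between the times.

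The cryptochromes were less far apart. Cry2 had 108 to 150 normalized counts at CT1 and 314 to 396 at CT13 (log2 fold change 1.5 ± 0.15, edgeR adjusted p = 3.93e-08). Cry1 had 114, 108, 117 and 111 at CT1 and 118, 181, 183 and 198 at CT13, so that SV421 lay just above the CT1 mice, and its log2 fold change of 0.60 ± 0.18 only just passed the threshold and was 0.57, no longer called, when GC-corrected. Of the Rev-erb genes, Nr1d2 was higher at CT13, with 184 to 327 at CT1 and 499 to 598 at CT13 (log2 fold change 1.19 ± 0.13, edgeR adjusted p = 1.21e-07). Nr1d1 had 157, 75.3, 143 and 112 at CT1 and 117, 137, 159 and 156 at CT13 and was the repressor that was not called (log2 fold change 0.24 ± 0.19). Its mean was 122 ± 36.2 (SD, n = 4) at CT1, 552 at CT9 and 142 ± 19.4 at CT13, so that CT1 and CT13 lay on either side of its maximum.

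The remaining repressors act on E-boxes or on the proteins bound there. Ciart, which binds the Bmal1 and Clock pair and had 3 E-boxes before its start, had 2.32, 5.72, 4.09 and 7.62 at CT1 and 60.0, 56.0, 51.1 and 80.0 at CT13 (log2 fold change 3.6 ± 0.31, edgeR adjusted p = 5.37e-09). Bhlhe40, a repressor that binds E-boxes itself, had 299 to 563 at CT1 and 613 to 842 at CT13 (log2 fold change 0.85 ± 0.15). Its relative Bhlhe41 was low, with 4.64, 0, 2.05 and 4.36 at CT1 and 17.6, 10.8, 9.13 and 26.7 at CT13 (log2 fold change 2.54 ± 0.50), so that its fold rests on few reads.

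**Figure D2:**
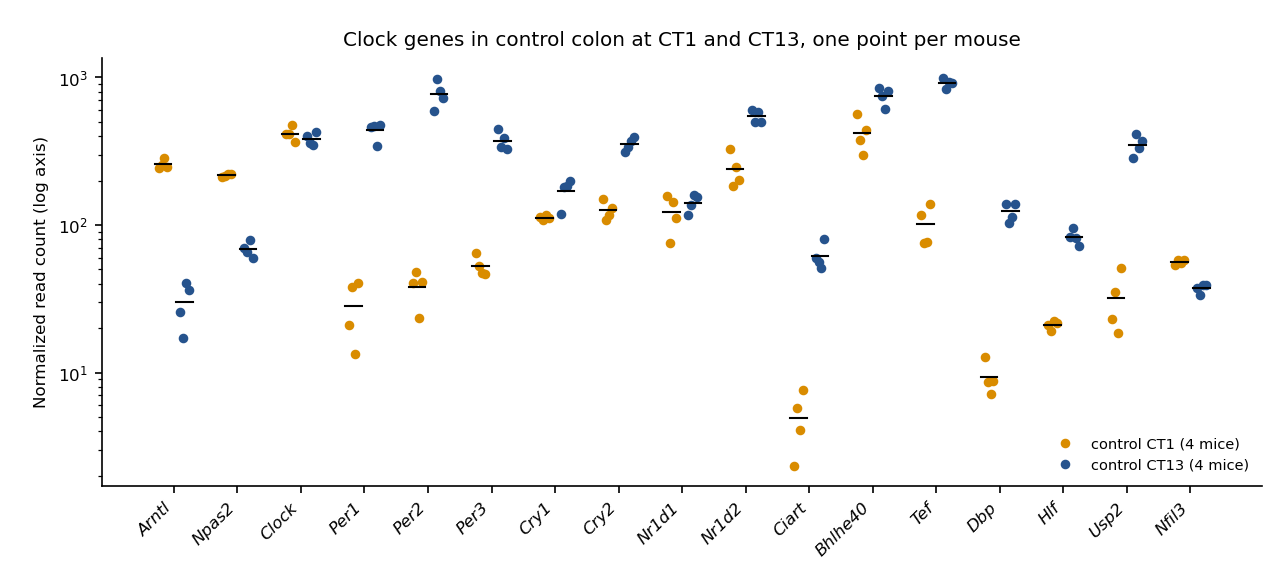
Normalized read counts (log axis) of clock genes in control colon, 1 point for each of 4 mice at CT1 and 4 at CT13. Arntl and Npas2 lie lower at CT13 and Per1, Per2, Per3, Ciart, Dbp and Tef higher without overlap, while the points of Clock and Nr1d1 overlap.

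The outputs of the clock followed, with 9 of 14 genes called higher and 1 lower (10 and 2 when GC-corrected, median log2 fold change 1.31). Tef (chr15:81802421-81826863) had 116, 75.3, 76.7 and 139 normalized counts at CT1 and 993, 830, 928 and 915 at CT13, and its adjusted p of 4.15e-15 (edgeR) at a log2 fold change of 3.18 ± 0.14 was the smallest among the clock lists. Dbp had 12.8, 8.58, 7.16 and 8.71 at CT1 and 140, 103, 114 and 140 at CT13 (log2 fold change 3.74 ± 0.26, edgeR adjusted p = 5.44e-11). Hlf had 19.1 to 22.5 at CT1 and 72.5 to 95.9 at CT13 (log2 fold change 1.98 ± 0.20). The PAR bZIP activators Tef, Dbp and Hlf were thus all higher at CT13, and Nfil3, which competes with them for D-boxes, had 53.4 to 58.1 at CT1 and 33.4 to 39.4 at CT13, lower without overlap. Its log2 fold change of -0.58 ± 0.21 fell just short of the threshold and was -0.76 and called when GC-corrected.

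Usp2, a ubiquitin protease driven by the clock, had 23.2, 35.3, 18.4 and 51.2 normalized counts at CT1 and 286, 412, 330 and 370 at CT13, a 10.9-fold difference (edgeR adjusted p = 2.34e-10). Noct, which encodes nocturnin, a phosphatase of NADP(H), had 183, 175, 174 and 106 at CT1 and 345, 519, 363 and 417 at CT13 (log2 fold change 1.37 ± 0.19). The other outputs called higher were Tsc22d3, which glucocorticoids also induce, the tetraspanin Tspan4, the pyridoxal kinase Pdxk and the coenzyme Q binding protein Coq10b, at log2 fold changes between 1.25 and 1.82. Leo1, a subunit of the Paf1 elongation complex, was the output called lower (log2 fold change -0.67 ± 0.13). Nampt, the enzyme of NAD salvage, had 370 to 406 at CT1 and 377 to 435 at CT13 and was not called. Wee1, a kinase that holds back mitosis, had 57.3 to 92.4 at CT1 and 99.3 to 130 at CT13, at a log2 fold change of 0.54 that lay under the threshold and of 0.59 that passed it when GC-corrected.

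Of 28 heat shock and cold-inducible genes, 20 were called higher at CT13 and 1 lower, with a median log2 fold change of 0.96. The chaperones of the list refold proteins and are induced by warmth through heat shock factors. Hspa1b had 12.8, 17.2, 17.4 and 13.1 normalized counts at CT1 and 180, 1739, 376 and 425 at CT13, a 44.3-fold difference and the largest of the genes named here (log2 fold change 5.47 ± 0.59, edgeR adjusted p = 9.73e-08). Hspa1a, its near-identical neighbor on chromosome 17, had 6.67 to 12 at CT1 and 77.6, 764, 139 and 147 at CT13, and reads of the pair may have been divided between them by the counting. Mouse SV424 was the highest at CT13 for both, and without it the log2 fold change was 4.41 for Hspa1b and 3.78 for Hspa1a. Hsph1, a nucleotide exchange factor for Hsp70, had 186, 172, 177 and 172 at CT1 and 802, 3189, 1541 and 1396 at CT13 (log2 fold change 3.29 ± 0.35, edgeR adjusted p = 8.91e-08). The spread among CT1 mice was narrow, while CT13 mice differed by several-fold among themselves.

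The abundant Hspa8, the constitutive Hsp70, had 3396 to 3793 normalized counts at CT1 and 8340, 17038, 12272 and 11524 at CT13 (log2 fold change 1.81 ± 0.19, edgeR adjusted p = 5.49e-08). Its cochaperone Dnaja1 (log2 fold change 2.07 ± 0.21) and Chordc1, a partner of Hsp90 (1.64 ± 0.17), were higher too. Cirbp, which is induced by cold rather than warmth, was the gene of this list called lower, with 244, 220, 297 and 231 at CT1 and 115, 64.6, 91.3 and 85.3 at CT13 (log2 fold change -1.47 ± 0.19, edgeR adjusted p = 1.44e-06). Over the whole list, the level of SV424 was 1.116 above the mean on the log2 scale and that of the other CT13 mice 0.215 to 0.505. Without each mouse in turn, 17 to 20 members were called higher.

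Genes that glucocorticoids induce were called higher in 9 of 22 cases and lower in none (median log2 fold change 0.40), and 10 were higher and 1 lower when GC-corrected. Fkbp5, a chaperone of the glucocorticoid receptor and itself a standard target of the hormone, had 406, 589, 618 and 573 normalized counts at CT1 and 2053, 2713, 2410 and 2655 at CT13 (log2 fold change 2.17 ± 0.23, edgeR adjusted p = 7.79e-08). Zbtb16, a zinc finger repressor, had 9.28, 15.2, 16.4 and 16.3 at CT1 and 69.3, 151, 89.4 and 102 at CT13 (log2 fold change 2.83 ± 0.41). Sgk1, the kinase through which corticosteroids raise sodium channels in the colon, had 263 to 411 at CT1 and 968 to 1565 at CT13 (log2 fold change 1.87 ± 0.23, edgeR adjusted p = 7.38e-07). Per1 and Tsc22d3 belong to this list as well as to the clock lists.

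Early response genes moved in both directions, with 5 of 23 called higher and 2 lower (3 when GC-corrected). Junb, a subunit of the transcription factor AP-1, had 19.7 to 22.5 normalized counts at CT1 and 63.9 to 107 at CT13 (log2 fold change 1.99 ± 0.29, or 1.4 when GC-corrected), and Klf10, a target of TGF beta and of the clock, 114 to 159 and 237 to 286. Egr1, the zinc finger factor induced by growth signals, had 213, 261, 248 and 78.4 at CT1 and 33.1, 69.0, 40.2 and 25.6 at CT13 (log2 fold change -2.26 ± 0.50). Klf6 had 1135 to 1595 at CT1 and 448 to 579 at CT13 (log2 fold change -1.43 ± 0.17, edgeR adjusted p = 6.16e-07).

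Cell division genes were lower at CT13. Of 32 genes of mitosis, 30 were called lower and none higher (median log2 fold change -1.57), and the count was again 30 when GC-corrected. Top2a, the topoisomerase that untangles chromosomes, had 686, 771, 868 and 381 normalized counts at CT1 and 232, 139, 183 and 165 at CT13 (log2 fold change -1.91 ± 0.20, edgeR adjusted p = 4.87e-08). Mki67, whose protein Ki-67 marks cycling cells, had 1015, 1101, 1211 and 560 at CT1 and 332, 280, 294 and 285 at CT13 (log2 fold change -1.70 ± 0.20, edgeR adjusted p = 3.63e-07). The spindle motor Kif11 (log2 fold change -1.81 ± 0.19), the cyclin Ccna2 (-1.76 ± 0.19) and the spindle protein Nusap1 (-2.06 ± 0.25) were lower as well. In each of these genes SV469 was the lowest CT1 mouse and still lay above every CT13 mouse. Its level over the mitosis list was 0.134 on the log2 scale, beside 0.749 to 1.015 for the other CT1 mice, and leaving out any 1 mouse kept the number called lower at 30. The letters of the CHR element stood in 19 of 25 windows of the called mitosis genes, in 12.2% of all windows and in 3 of 20 windows of the called genes of DNA replication.

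Of 31 genes of DNA replication, 19 were called lower and none higher (median log2 fold change -0.91), and 21 were lower when GC-corrected. Rrm2, the regulated subunit of ribonucleotide reductase, had 95.1, 114, 103 and 81.7 normalized counts at CT1 and 36.2, 36.6, 39.2 and 37.3 at CT13 (log2 fold change -1.40 ± 0.16, edgeR adjusted p = 1.52e-07). Its partner Rrm1 had 221 to 335 at CT1 and 115 to 149 at CT13 (log2 fold change -1.13 ± 0.13). The DNA ligase Lig1, the polymerase Pole and the helicase subunit Mcm6 had log2 fold changes between -1.54 and -0.99. Again SV469 was lowest at CT1, with 0.041 over the list beside 0.461 to 0.552 for the other CT1 mice.

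Sterol synthesis genes, which SREBP-2 switches on when cells run short of cholesterol, were called lower in 16 of 41 cases and higher in 2 (1 without SV396, SV397, SV454 or SV469), at a median log2 fold change of -0.37. Insig1, which holds SREBP in the endoplasmic reticulum and is itself its target, had 863, 773, 562 and 393 normalized counts at CT1 and 118, 90.5, 79.4 and 76.8 at CT13 (log2 fold change -2.83 ± 0.35, edgeR adjusted p = 7.32e-07). Hmgcs1, the synthase that feeds the pathway, had 1124, 1075, 1118 and 551 at CT1 and 316, 319, 268 and 360 at CT13 (log2 fold change -1.61 ± 0.22). Fdft1, which makes squalene, had 332 to 659 at CT1 and 184 to 252 at CT13 (log2 fold change -1.38 ± 0.22), and the sterol carrier Stard4 902 to 1222 and 573 to 694. SV469 was the lowest CT1 mouse in each of these genes and its level over the list was -0.043, beside 0.279 to 0.354. When GC-corrected, 14 members were lower and 1 higher, and Stard4 was no longer called.

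In other metabolic pathways fewer members were called. Alas1, the first enzyme of heme synthesis, had 206, 288, 232 and 493 normalized counts at CT1 and 1326, 2097, 1541 and 2591 at CT13, a 6.20-fold difference (log2 fold change 2.63 ± 0.25, edgeR adjusted p = 2.04e-08). Por, the reductase that passes electrons to cytochromes P450, had 436 to 498 at CT1 and 835 to 983 at CT13. Both belong to the list of xenobiotic metabolism and efflux, of which 5 of 61 genes were called higher and 10 lower (5 and 9 when GC-corrected). The efflux pump Abcg2, which returns urate and drugs to the lumen, had 637, 806, 851 and 685 at CT1 and 335, 310, 304 and 280 at CT13 (log2 fold change -1.27 ± 0.11, edgeR adjusted p = 5.47e-09), while the P450 gene Cyp2d12 was lower at low counts and the sulfotransferase Sult2b1 higher.

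Of 36 genes of fatty acid oxidation, 7 were called higher and 4 lower (8 and 2 when GC-corrected). The nuclear receptor Ppara, which drives the pathway, had 74.7 to 130 at CT1 and 171 to 206 at CT13 (log2 fold change 1.01 ± 0.14). Its peroxisomal target Pex11a was higher too (log2 fold change 1.23 ± 0.17). Among 33 genes of glycolysis and hypoxia, 8 were called higher and 2 lower, with Ldha, lactate dehydrogenase, at 2376 to 2654 at CT1 and 3751 to 4438 at CT13 (log2 fold change 0.72 ± 0.07, edgeR adjusted p = 2.22e-08). When GC-corrected, 4 of that list were called higher, and Pkm, pyruvate kinase, was 0.31 instead of 0.66. The hypoxia gene Ndrg1 was lower (log2 fold change -0.74 ± 0.13). Genes of the respiratory chain (9 of 82 called higher, 4 when GC-corrected, none lower) and of cytosolic ribosomal proteins (7 of 81, 6 when GC-corrected) had shares near or below that of all genes.

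Of 28 genes of brush border enzymes and lipid absorption, 6 were called higher (4 when GC-corrected, and 3 without SV454 or without SV468). The highest fold among them was that of Dgat2, which makes triglyceride, with 136, 111, 92.0 and 217 normalized counts at CT1 and 335, 395, 373 and 448 at CT13 (log2 fold change 1.49 ± 0.19). Of 34 genes of protein folding in the endoplasmic reticulum, 6 were called higher and none lower (6 and 1 when GC-corrected), among them Hyou1 (log2 fold change 1.13 ± 0.17), Herpud1 (0.69 ± 0.10) and Hspa5, the chaperone BiP (0.72 ± 0.16).

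Transport of salt and water is the main task of the colon, and 10 of 35 such genes were called higher at CT13 and 3 lower (median log2 fold change 0.36), or 9 and 2 when GC-corrected. Atp1b1, a subunit of the sodium pump, had 2503, 2775, 2541 and 3152 normalized counts at CT1 and 4847, 5355, 5092 and 5930 at CT13 (log2 fold change 0.96 ± 0.09, edgeR adjusted p = 2.22e-08). Hsd11b2, which shields the mineralocorticoid receptor from glucocorticoids, had 349 to 420 at CT1 and 755 to 919 at CT13 (log2 fold change 1.16 ± 0.12, edgeR adjusted p = 3.58e-08). The receptor itself, Nr3c2, was lower, with 549 to 650 at CT1 and 346 to 418 at CT13, at a log2 fold change of -0.60 ± 0.10 that was no longer called when GC-corrected (-0.49). The water channels Aqp8 and Aqp4 were lower too, Aqp8 with 36.8 to 88.2 at CT1 and 7.54 to 15.5 at CT13 (log2 fold change -2.35 ± 0.45).

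Tight junction genes were called in opposite directions, 4 of 17 higher and 4 lower. Cldn8, which seals the distal colon to sodium, had 296, 288, 361 and 357 normalized counts at CT1 and 56.9, 87.3, 61.1 and 42.6 at CT13 (log2 fold change -2.39 ± 0.19, edgeR adjusted p = 7.30e-10). Cldn4 (log2 fold change -1.49 ± 0.20) and Cldn23 (-1.32 ± 0.18) were lower as well. Cldn2, which forms pores for sodium and water, had 1139, 993, 865 and 1823 at CT1 and 2578, 2867, 3533 and 3106 at CT13 (log2 fold change 1.33 ± 0.22). The remaining calls, of Cldn3, Cldn15 and cingulin (Cgn) higher and occludin (Ocln) lower, were at log2 fold changes from -0.67 to 0.73 and were all lost when GC-corrected (Cldn3 at 0.12 instead of 0.73), which left 1 higher and 3 lower.

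Among goblet cell genes, 3 of 25 were called higher and 2 lower (1 lower when GC-corrected and without SV421, SV455 or SV468). The transcription factors of the lineage were among the former, Spdef with 376, 381, 362 and 438 normalized counts at CT1 and 1131, 1198, 1236 and 1432 at CT13 (log2 fold change 1.69 ± 0.20, edgeR adjusted p = 3.29e-07) and Atoh1 with 119 to 245 and 345 to 416 (log2 fold change 1.24 ± 0.22). Agr2, which folds mucin, was lower at the threshold (-0.59 ± 0.10) and not called when GC-corrected.

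Antimicrobial genes were called lower in 4 of 20 cases and higher in none (3 lower when GC-corrected, 2 without SV424). Nox1, the epithelial oxidase that makes superoxide, had 101, 87.7, 60.3 and 43.6 normalized counts at CT1 and 12.4, 5.39, 9.13 and 7.46 at CT13, 8.34-fold lower (log2 fold change -3.06 ± 0.36, edgeR adjusted p = 3.94e-07). Reg3a, a lectin that kills Gram-positive bacteria, had 19.6 to 41.0 at CT1 and 6.46 to 20.3 at CT13, so that the times overlapped in SV469 and SV397 (log2 fold change -1.36 ± 0.31).

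Of 23 genes of gasdermins, caspases and the inflammasome, 7 were called lower and 1 higher. Casp4, the sensor of cytosolic lipopolysaccharide, had 247, 189, 200 and 164 normalized counts at CT1 and 72.4, 57.1, 53.8 and 65.0 at CT13 (log2 fold change -1.68 ± 0.18, edgeR adjusted p = 6.00e-08). The sensor Nlrp1b had 45.7 to 61.5 at CT1 and 23.5 to 33.1 at CT13 (log2 fold change -1.07 ± 0.19). Gsdmc4 had 857 to 1424 at CT1 and 225 to 850 at CT13 (log2 fold change -1.48 ± 0.33) and its paralog Gsdmc3 was lower as well, though reads of this cluster of similar genes may have been divided among its members. Nlrp6 was the gene called higher, at a log2 fold change of 0.61 ± 0.10. When GC-corrected, 4 were called lower and none higher, and Nlrp6 and the adaptor Pycard were among those not called. Without SV424, 4 were called lower, and without SV424, SV396 or SV454 none higher.

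Genes of microbial metabolite sensing and nutrient uptake were called lower in 4 of 26 cases and higher in 1 (3 each way when GC-corrected). Without SV469, SV421 or SV424 the number higher was 4, 3 or 2, and without each mouse in turn 3 to 6 were lower. Ffar2, the receptor for short-chain fatty acids, had 173, 120, 128 and 142 normalized counts at CT1 and 80.7, 45.2, 66.6 and 45.8 at CT13 (log2 fold change -1.22 ± 0.17, edgeR adjusted p = 3.55e-06). Ffar4, which senses long-chain fatty acids, was the one higher, with 55.2 to 100 at CT1 and 188 to 245 at CT13 (log2 fold change 1.42 ± 0.22). Tlr2, which senses bacterial lipoproteins, was lower (log2 fold change -0.96 ± 0.17). Pigr, which carries IgA to the lumen, had 13710 to 15293 at CT1 and 9367 to 10503 at CT13, without overlap, but its log2 fold change of -0.53 ± 0.07 was under the threshold.

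**Figure D3:**
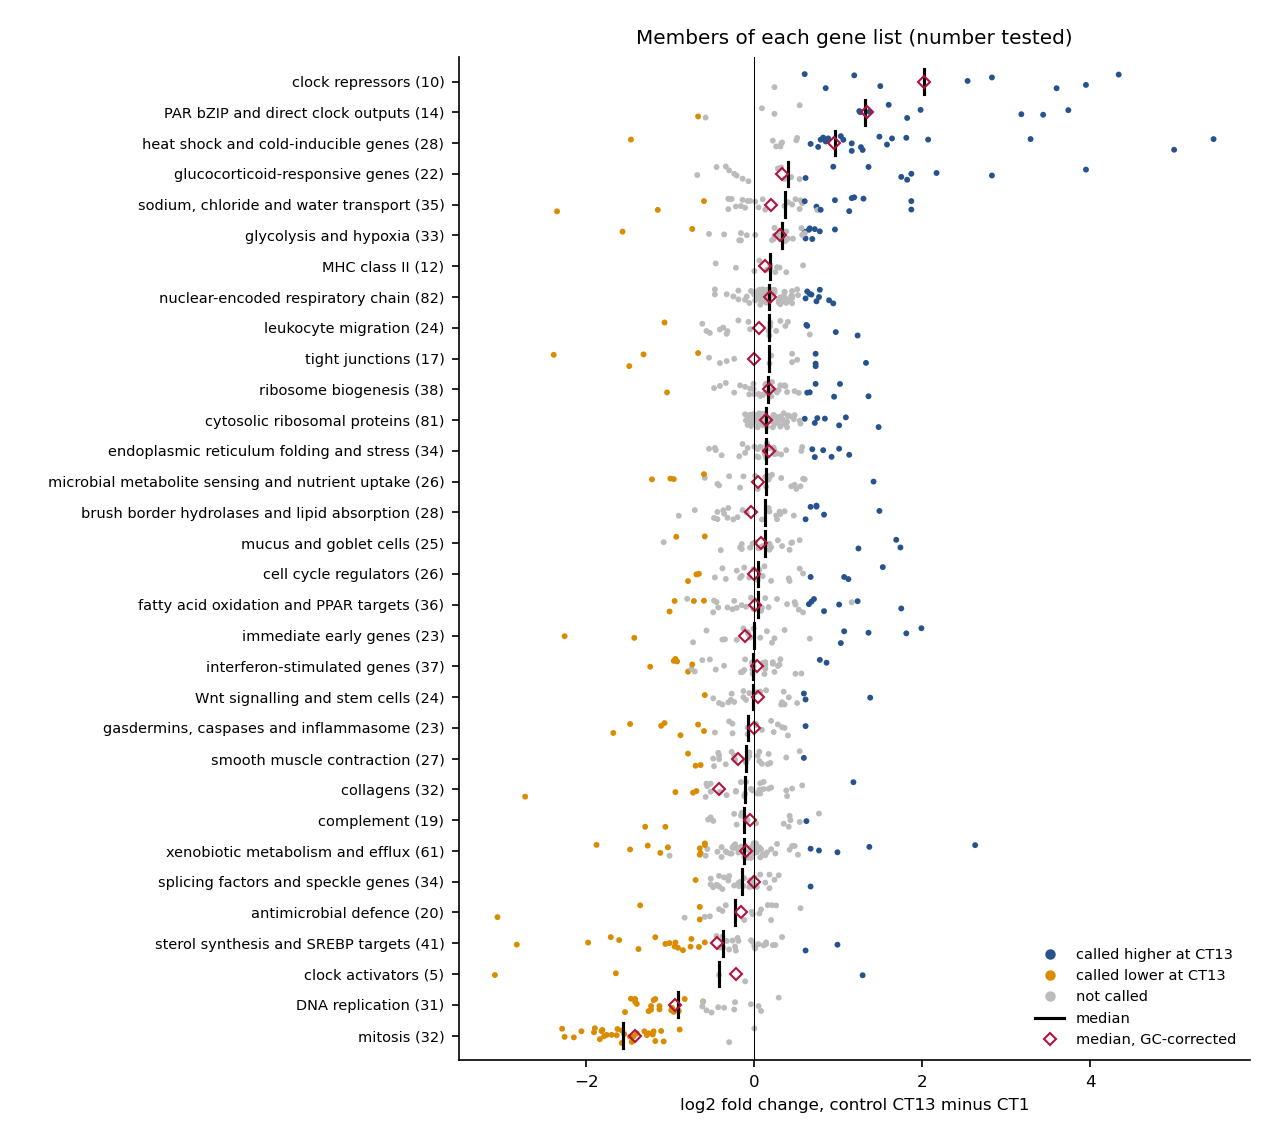
Log2 fold change in control colon, CT13 minus CT1, of each tested member (points) of the gene lists, with the number tested in brackets, called genes colored by direction, and the median of each list with and without correction for GC content. Clock repressors and the heat shock and cold-inducible genes lie mostly right of 0. Genes of mitosis (30 of 32 called) and DNA replication lie mostly left of 0.

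Outside the clock lists, the genes of smallest adjusted p that were higher at CT13 were led by Fam102a, an estrogen-responsive gene, with 447, 459, 465 and 472 normalized counts at CT1 and 1334, 2299, 1605 and 1873 at CT13 (log2 fold change 1.95 ± 0.15, edgeR adjusted p = 4.21e-10). The light chain of clathrin Cltb had 254 to 343 and 624 to 707 (log2 fold change 1.21 ± 0.09, edgeR adjusted p = 5.15e-10). Lipid enzymes of the epithelium were among them, Fa2h, which hydroxylates fatty acids of sphingolipids (335, 377, 296 and 445 at CT1, 863, 894, 871 and 915 at CT13), and Degs2, which makes phytoceramide (log2 fold change 0.91 ± 0.09). Slc9a3r1, the scaffold that holds transporters at the brush border, had 376 to 490 at CT1 and 886 to 1258 at CT13 (log2 fold change 1.3 ± 0.12), and Baiap2l2, which shapes the membrane of microvilli, 193 to 270 and 455 to 621, at a log2 fold change of 1.25 that was 0.59 when GC-corrected. Mitochondria were represented by the uncoupling protein Ucp2, with 1589 to 1762 at CT1 and 2813 to 3093 at CT13 (log2 fold change 0.83 ± 0.08). Sec14l1, of a family of lipid binding proteins, and Dda1, a subunit of ubiquitin ligases, were also among them. None of the genes named here overlapped between the times, beside 18.5% of all genes with every CT13 mouse above every CT1 mouse. They were chosen by adjusted p in the same mice, so this is a description.

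Of the genes of smallest adjusted p that were lower at CT13, Arhgap20, a GTPase-activating protein, had 514, 532, 567 and 499 normalized counts at CT1 and 146, 117, 150 and 109 at CT13 (log2 fold change -2.01 ± 0.14, edgeR adjusted p = 5.11e-11). Slc8a1, the exchanger of sodium and calcium, had 790 to 837 at CT1 and 350 to 431 at CT13 (log2 fold change -1.10 ± 0.11), and Zfand5, which activates the proteasome, 672 to 726 and 295 to 332. Hao2, a peroxisomal hydroxy acid oxidase, had 1727, 1664, 1301 and 985 at CT1 and 496, 363, 351 and 310 at CT13 (log2 fold change -1.90 ± 0.18), and the serine protease Prss23 208 to 390 and 73.0 to 110. Neil3, a DNA glycosylase of replicating cells, had 81.2, 86.7, 99.2 and 58.8 at CT1 and 13.4, 3.23, 10 and 4.26 at CT13, 10.2-fold lower. Cldn8, Abcg2 and the poorly known 4930539E08Rik and 2310001H17Rik were the others.

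By size, the largest fall was that of Slc34a2, the phosphate transporter of epithelia, with 171, 184, 230 and 78.4 normalized counts at CT1 and 7.24, 2.15, 10 and 0 at CT13 (log2 fold change -5.00 ± 0.53, edgeR adjusted p = 7.99e-08). 4732465J04Rik (log2 fold change -3.20 ± 0.33) and Agbl2, a carboxypeptidase of tubulin (-3.11 ± 0.32), followed, with Neil3. The immunoglobulin segment Ighv5-9 was also among the 5 largest, but had 121 and 35.3 in SV454 and SV455 and 5.11 and 4.36 in the other CT1 mice, belongs to a multigene family, and lost its call when either SV454, SV424 or SV396 was left out. Collagen genes were called lower in 4 of 32 cases and higher in 1 (7 and none when GC-corrected), with Col8a1, a short-chain collagen, at 239, 211, 236 and 96.9 at CT1 and 37.2, 30.2, 29.2 and 20.3 at CT13 (log2 fold change -2.73 ± 0.28, edgeR adjusted p = 4.62e-08) and Col3a1 at 2029 to 2459 and 1156 to 1470. The fibroblast marker sum given above was lower at CT13 as well, but it includes Col3a1 and is no separate result. Averaged over its 8 markers on the log2 scale, that list overlapped between the times. Its level was -0.358 to 0.159 at CT13 and -0.078 to 0.207 at CT1.

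Mice at the other times placed these genes in the day. The highest of the 6 control means was at CT13 in 75.3% of the genes called higher and at CT1 in 80.0% of those called lower, beside 20.8% and 25.8% of all genes. This count uses the same mice as the calls and is a description. CT17 and CT9, which lie on either side of CT13, and CT5 and CT21, on either side of CT1, used other mice. Of all genes, 8.4% differed between CT17 and CT9, 427 higher and 767 lower at CT17, and 6.19% between CT5 and CT21 (21.4% and 15.5% without the demand on the fold change). Among genes higher at CT13, 161 (11.9%) were higher and 48 (3.55%) lower at CT17 than at CT9, beside 3% and 5.39% of all genes, and without the CT17 mouse SV398 the number higher was 106. When GC-corrected, 29 were lower. Of the same genes, 164 were lower and 12 higher at CT5 than at CT21, but the number lower was 250 without SV442, 102 without SV446, 106 without SV447 and 102 when GC-corrected. Among genes lower at CT13, 329 (22.4%) were lower and 32 (2.17%) higher at CT17 than at CT9, and 231 (15.7%) were higher and 30 (2.04%) lower at CT5 than at CT21, beside 3.27% and 2.92% of all genes.

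Clock genes reached their highest means at different times. Dbp had a control mean of 9.30 at CT1, 88 at CT5, 368 at CT9, 124 at CT13 and 38.1 at CT17, and Ciart 146 at CT9 and 61.8 at CT13, so that both were highest before CT13. Per2 followed with 269 at CT9, 776 at CT13 and 442 at CT17, and Cry1 with 58.7, 170 and 186 at these times and 189 at CT21. Arntl was at 26.2 at CT9, 29.9 at CT13 and 250 at CT21. Of the heat shock genes, Hspa1b was at 19.5 at CT9, 680 at CT13 and 90.6 at CT17, and Hsph1 at 195, 1732 and 757. Fkbp5 had 1045 at CT9, 2458 at CT13 and 1111 at CT17. The mean level of the mitosis list on the log2 scale was 0.686 ± 0.412 (SD, n = 4) at CT1, 0.698 ± 0.135 at CT5, 0.449 ± 0.219 at CT9, -0.763 ± 0.142 at CT13 and -0.829 ± 0.248 at CT17, so that the drop lay between CT9 and CT13. The DNA replication list instead was at 0.328 ± 0.241 at CT1, -0.104 ± 0.152 at CT5, -0.265 ± 0.124 at CT9, -0.467 ± 0.129 at CT13 and 0.424 ± 0.153 at CT21.

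**Figure D4:**
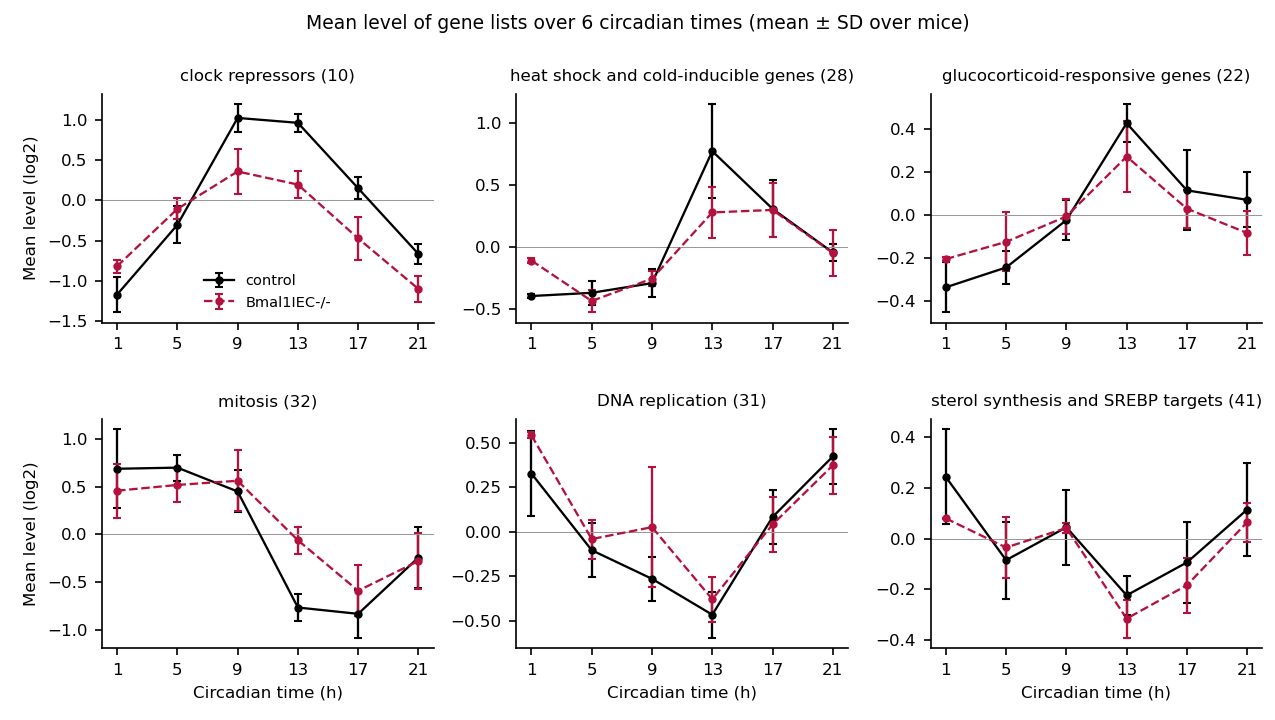
Mean level of gene lists (log2, centered) at 6 circadian times, mean ± SD over mice, for control (4 mice a time) and Bmal1IEC-/- mice (4 a time, 2 at CT1). In control mice the repressors are highest at CT9 and CT13, and the heat shock and cold-inducible list at CT13. The mitosis list goes from 0.449 at CT9 to -0.763 at CT13.

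The same times were compared in Bmal1IEC-/- mice, which asks what the colon retains of the difference when its epithelium lacks Bmal1. Arntl, the deleted gene, had 171 and 180 normalized counts in the Bmal1IEC-/- mice at CT1 (SV479 and SV480) and 102 to 130 at CT13, at a log2 fold change of -0.59 without a call. The Arntl mean in Bmal1IEC-/- mice was 176 at CT1 and 116 at CT13, beside 258 and 29.9 in control mice. In whole tissue the RNA of cells without Cre is counted too, but which cells or allele gave these reads was not tested. A further pair of Bmal1IEC-/- mice at CT1, SV384 and SV385, lay outside the 46 mice used for the genotypes and is added where stated. In Bmal1IEC-/- mice 344 of 15073 genes (2.28%) were called, 151 higher (1%) and 193 lower (1.28%). Genes called higher in control mice had a median log2 fold change of 0.83 there and of 0.35 in Bmal1IEC-/- mice, 1253 of 1351 kept the sign and 96 were called higher. Genes called lower had -0.94 and -0.38, 1284 of 1472 kept the sign and 155 were called lower. With the additional pair, the Bmal1IEC-/- medians were 0.22 and -0.28. The control medians are those of genes chosen by the same values and are a description. The GC trend of Bmal1IEC-/- mice was -0.253 and -0.221 at CT1 and ran from -0.024 to 0.153 at CT13, without overlap, while the additional pair had -0.082 and 0.023.

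The difference between the genotypes in the change from CT1 to CT13 was called in 212 genes (1.41%), upward in 0.856% of the genes tested and downward in 0.551%, and in 1498 with the additional pair. It was called in 24 genes without the Bmal1IEC-/- CT1 mouse SV480, in 43 without SV479, in 371 without the control CT1 mouse SV469, and in 106 to 136 without SV454, SV455, SV468, SV424, SV397, SV448 or SV449. It shares the control mice with the comparison above, so the values of both genotypes are given side by side. In Bmal1IEC-/- mice Per2 had 189 and 190 at CT1 and 386, 369, 435 and 449 at CT13, a log2 fold change of 1.13 beside 4.34 in control mice (difference 3.21, edgeR adjusted p = 8.27e-09). Tef had log2 fold changes of 1.22 and 3.18 (difference 1.96, edgeR adjusted p = 1.70e-08). Npas2 had 230 and 254 at CT1 and 279 to 324 at CT13 in Bmal1IEC-/- mice, 0.34 beside -1.65. Nr1d2 had 1.20 in Bmal1IEC-/- mice and 1.19 in control mice, and Hlf 2.71 and 1.98, and neither difference was called. Zbtb16, of the glucocorticoid list, had 2.95 and 2.83. None of the 22 genes of that list had a called difference in the 46 mice, and 4 had with all 48. Fkbp5 and Sgk1 were among these 4, with 0.86 and 0.67 in Bmal1IEC-/- mice (all 48) beside 2.17 and 1.87 in control mice.

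Of 17 tight junction genes, the change of Cldn8 alone differed between the genotypes in the 46 mice, and with all 48 mice that of Cldn2 and Cldn3 did too. In Bmal1IEC-/- mice it had 639 and 627 at CT1 and 686, 553, 556 and 762 at CT13, above all control mice, and a log2 fold change of 0.03 beside -2.39 (difference -2.41, edgeR adjusted p = 3.43e-08). Slc34a2 had 197 and 173 and then 53.4, 72.8, 226 and 119 (-0.62 beside -5.00). Smim24, a small membrane protein, had 0.04 beside 1.12, and Ffar2 had 180 and 169 at CT1 and 160 to 188 at CT13. Of the 28 heat shock and cold-inducible genes, 11 had a called difference between the genotypes (17 with all 48 mice). Their list median was 0.20 in Bmal1IEC-/- mice beside 0.96. Hsph1 had 1.29 beside 3.29, Hspa8 0.48 beside 1.81 and Cirbp -0.18 beside -1.47. Of 32 mitosis genes, 4 had a called difference (list median -0.57 beside -1.57), among them Ccna2 (-0.46 beside -1.76). With all 48 mice it was 19, Top2a, Mki67, Kif11 and Nusap1 included. Of the genes of DNA replication and sterol synthesis, none had a called difference in the 46 mice (2 and 3 with all 48), and their medians were -0.86 beside -0.91 and -0.27 beside -0.37. Rrm2 had -1.39 in Bmal1IEC-/- mice and -1.40 in control mice, and Hmgcs1 -1.39 and -1.61. A missing call does not show that the genotypes were alike, and the Bmal1IEC-/- group at CT1 held 2 mice.

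**Figure D5:**
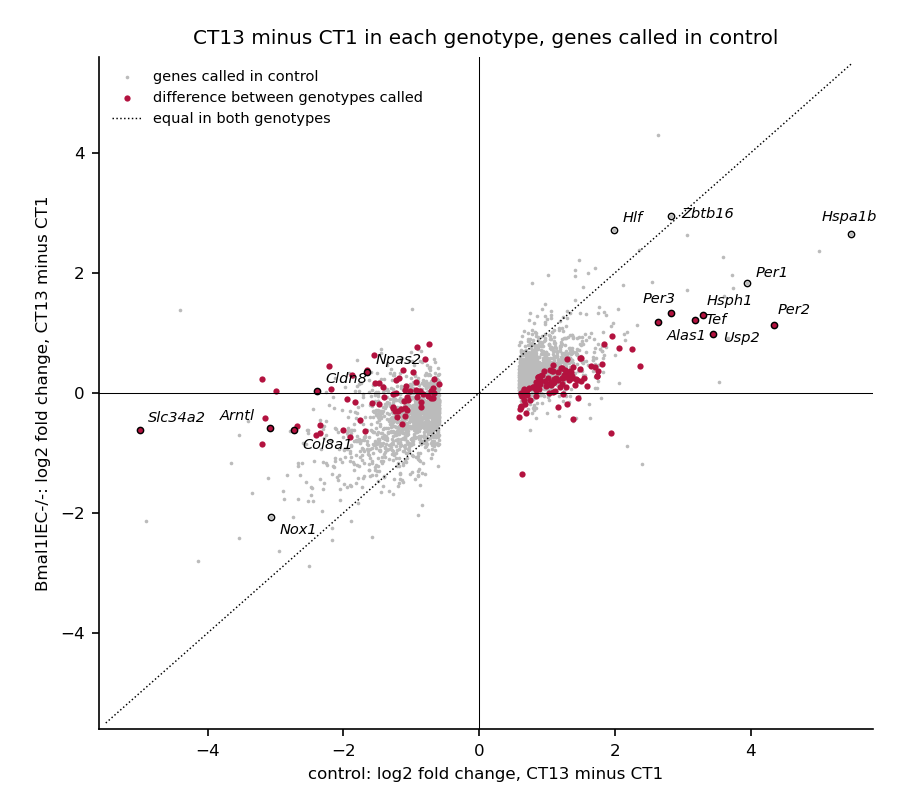
Log2 fold change, CT13 minus CT1, in control mice (x axis) and in Bmal1IEC-/- mice (y axis) for the genes called in control mice, with some genes labeled and genes of a called difference between genotypes in red. Per2, Tef and Cldn8 lie far from the dotted line of equal change, while Zbtb16 lies near it.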

How the data were processed

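RNA of colon tissue (TruSeq Stranded mRNA) was sequenced by the authors from 48 mice. Per the study's methods and the submitters' processing notes, reads were checked with FastQC 0.11.5, trimmed with Trimmomatic 0.39, aligned to mm10 with STAR 2.7.5c, and counted on exons at a mapping quality of at least 4 with featureCounts 1.4.6, and the study tested them with DESeq2 1.22.0. The deposited values are these raw counts per gene by the authors, without normalization. The strand setting of the counting and the annotation version are not given in the sources used here, nor is any batch.

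Here the 24 control mice were fitted with edgeR 4.0.16 (filterByExpr, TMM, quasi-likelihood test of CT13 minus CT1, Benjamini-Hochberg adjustment) in R 4.3.3, and a gene was called at an adjusted p under 0.05 with a fold over 1.5. Genotypes were compared in 46 mice, the number the study plotted, and in all 48. The labels do not say which 46 these were, and leaving out Bmal1IEC-/- CT1 mice SV384 and SV385 is an inference. Counts were divided by size factors from DESeq2 1.42.0 for the normalized values printed. In simulated counts, 154 of 200 genes changed by a fold of 2 were recovered for CT13 against CT1 and 3 of 13882 unchanged genes were called. For the difference between genotypes, 107 of 200 were recovered. The simulated counts held no GC trend, and only 200 genes changed in them. They therefore cannot show how many of the real calls go with that trend. Pairs of mice of a group differed by more than sampling noise (chi-square per gene 2.166 to 4.421 over 12 pairs). A count of 0 allows up to 3 counts, for counting error only.

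The 33 gene lists, the 16 marker lists and the members were chosen with earlier results of these data known, and the lists were described by counts without a set test. Genes named are all members of the clock lists, the 10 of smallest adjusted p and the 5 of largest fold in each direction with a mean of at least 20 normalized counts, up to 5 called members of each other list in each direction, and genes the study names, of which some are not reported here. GC content came from GENCODE vM21 transcripts (GRCm38), which matched 55141 of 55401 genes, and a fit with a lowess trend of each mouse on GC content removed (span 0.3) was added after seeing the data. Promoters are from RefSeq (GRCm38.p6). Alternatives were DESeq2, its size factors, no filter, no minimum fold, a test against the fold of 1.5 (glmTreat), other sets of mice, and leaving out each mouse.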

Additional observations from a re-analysis of the deposited data

Results flagged for a closer look

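In groups of 4 mice, the highest or lowest mouse stood apart from the others by Dixon's criterion in 17 of 258 groups of named genes and times, and chance alone gives about 1 in 20. Mouse SV469 at CT1 stood apart in 7 of them, low for Noct (106 normalized counts), Hmgcs1 (551), Fdft1 (332) and Reg3a (19.6) and high for Pdxk (115), Atoh1 (245) and Nlrp6 (839). SV424 at CT13 stood apart in 3, high for Hspa1b (1739) and Hspa1a (764) and low for Nr3c2 (346). SV421 at CT13 was high for Nlrp1b (33.1) and Gsdmc3 (429), and SV396 at CT13 was low for Per1 (345) and high for Klf6 (579). At CT1, SV454 was low for Zbtb16 (9.28) and Tlr2 (271), and SV455 was high for Vcam1 (40.0).

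For 40 of the 129 named genes the change from CT1 to CT13 differed between the genotypes, beside 1.41% of all genes tested. The test was the interaction in edgeR (46 mice, adjusted p under 0.05 and a fold over 1.5). Many named genes were chosen by their change in the same control mice, and some could enter by this difference itself. The count of 40 is therefore a description. The values that follow are log2 differences, control minus Bmal1IEC-/-, and a positive value means a change that was larger upward or smaller downward in control mice. Among clock genes and outputs they were 3.21 for Per2, 2.47 for Usp2, 1.96 for Tef, 1.5 for Per3, 0.95 for Coq10b, 0.92 for Cry2, 0.87 for Cry1, -1.99 for Npas2 and -2.49 for Arntl. Heat shock and cold-inducible genes gave 2.01 for Hsph1, 1.33 for Hspa8, 1.32 for Dnaja1, 1.21 for Chordc1 and -1.28 for Cirbp. The folding gene Herpud1 gave 0.66. In genes of transport and barrier the differences were 1.03 for Slc9a3r1, 0.59 for Atp1b1, -0.97 for Slc8a1, -1.02 for Abcg2, -2.41 for Cldn8 and -4.37 for Slc34a2. Metabolic genes gave 1.45 for Alas1, 1.13 for Sult2b1, 0.89 for Por, 0.73 for Fa2h and 0.73 for Ucp2. Of the others, Smim24 had 1.09, Fam102a 1.01, Sec14l1 0.91, Cltb 0.80, Dda1 0.80, Zfand5 -0.62, Casp4 -1.04, 4930539E08Rik -1.18, Ffar2 -1.21, Ccna2 -1.30, Arhgap20 -1.38, Gbp7 -1.69, Col8a1 -2.12 and 4732465J04Rik -2.35. With all 48 mice, the difference of 4930539E08Rik was not called.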

How the results depend on the processing

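The number of genes called between CT13 and CT1 was 2823. It was 5746 with no minimum fold change and 829 when tested against the fold of 1.5 with glmTreat. It was 2827 with DESeq2 size factors, 2808 with DESeq2, 3090 with no filter, 2679 with the 8 mice alone, 2795 with all 48 mice, 2277 GC-corrected, and 2605 to 3147 without each mouse in turn. The 212 genes that differed between the genotypes became 605 with no filter, 8 with glmTreat, 1498 with all 48 mice, and 24 to 371 without each mouse in turn. Where that left 1 Bmal1IEC-/- mouse at CT1, the lone mouse was assumed to vary like the other groups. Of the 2823 genes called, 570 differed between CT17 and CT9, and 403 to 641 without each mouse. Between CT5 and CT21 these numbers were 437 and 295 to 533. With the threshold changed in both comparisons, the set of called genes changed too. With no minimum fold change, 1649 of 5746 genes differed between CT17 and CT9 and 1293 between CT5 and CT21. With glmTreat, 61 and 25 of 829 genes did. Of 2062 values of 129 named genes under the alternatives, 1983 stayed on the same side, 58 lost the call, 15 gained it and 6 turned sign, none of the latter in a called gene. These were Clock (0.091) and Nr1d1 (-0.062) GC-corrected, and Abcc2, at 0.132 GC-corrected, 0.229 without SV424, 0.073 without SV454 and 0.065 without SV469 (-0.179 to 0.229 without each mouse). Apart from the number of mice and genes and the thresholds themselves, the cause was not tested. No paired analysis was possible because the animal numbers in the labels are not shared between the times. Genes at 0 counts in a mouse may have had up to 3 at this depth.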

Other observations

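Of 37 interferon-stimulated genes, 6 were called lower at CT13 and 2 higher (5 and 2 when GC-corrected), among them Rsad2, an antiviral enzyme, with 84.7 to 128 normalized counts at CT1 and 42.4 to 60.2 at CT13 (log2 fold change -0.96 ± 0.18), and Irgm1, a GTPase of immunity to vacuolar pathogens, with 53.4 to 76.2 and 94.0 to 135 (0.86 ± 0.18). Of 19 complement genes, 2 were lower (1 without SV469) and 1 higher (none without SV397 or SV455 or when GC-corrected), and Hc, complement component C5, had 13.9 to 39.9 at CT1 and 6.39 to 18.6 at CT13, with overlap. Of 24 genes of leukocyte migration, 4 were higher (2 without SV397, 2 when GC-corrected) and 1 lower (3 without SV468, and 2 without SV421, SV424, SV396, SV454 or SV455). Vcam1, an adhesion molecule of vessels, had 27.6 to 40.0 at CT1 and 48.4 to 84.0 at CT13 (log2 fold change 0.97 ± 0.19), and Ccl28, the epithelial chemokine that draws IgA plasma cells, 379 to 519 and 139 to 247 (-1.07 ± 0.16). None of 12 MHC class II genes was called by edgeR, although 2 were higher at an adjusted p under 0.05 without the demand on the fold change, and 1 was called without SV396, SV397, SV468 or SV469.

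Regulators of the cell cycle outside mitosis and replication were called higher in 4 of 26 cases and lower in 3 (5 and 2 when GC-corrected). Genes of ribosome biogenesis were higher in 6 of 38 and lower in 1, splicing factors higher in 1 of 34 and lower in 1 (1 and none when GC-corrected), genes of smooth muscle contraction higher in 1 of 27 and lower in 3 (none and 2 when GC-corrected), and genes of Wnt signaling and stem cells higher in 3 of 24 (1 without SV421, SV424 or SV396 and 0 without SV454) and lower in 1, of which none was called in either direction when GC-corrected. Of 14 tested genes that the study names for these mice, 2 were higher and 3 lower, and the study chose them on these samples, so they are no independent evidence. Among the marker lists not given above, 2 of 10 markers of enteroendocrine cells and 1 marker each of nerves and glia (of 9), plasma cells (of 6) and macrophages (of 9) were called higher, and 1 of 6 markers of T cells and both tested markers of squamous epithelium lower. No marker of endothelium, follicular B cells, adipocytes or tuft cells was called. The adipocyte list varied widely among mice of the same time. On the log2 scale it was 1.22 and 1.286 in the CT13 mice SV421 and SV424. In the CT13 mice SV396 and SV397 it was -2.323 and -2.293, and CT1 mice ran from -1.142 to 1.438. Summed markers of mast cells and granulocytes were 814 to 1097 at CT1 and 574 to 714 at CT13.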
